A study of Mus musculus with 47 samples.

Results

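The genes of the major histocompatibility complex (MHC) and of antigen presentation were followed in the kidneys of 3 inbred mouse strains. They were every gene of the count table whose symbol begins with H2-, the prefix of mouse MHC genes, together with Cd74, Ciita, Nlrc5, B2m, Tap1, Tap2, Tapbp, Psmb8, Psmb9 and Psmb10, which made 39 of 22474 genes. By role, 20 belonged to class I, 12 to class II and 6 to antigen processing, and the remaining gene, H2-Ke6, encodes a steroid dehydrogenase and was kept apart. The filter on low counts left 36 of the 39 for testing, 18 of class I, 11 of class II, all 6 processing genes and H2-Ke6. H2-Q1, H2-M5 and H2-Eb2 did not pass it: their highest counts in any library were 4, 14 and 13, and H2-Q1 had 0 counts in 37 of 47 libraries.

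PolyA RNA was sequenced from 47 samples of wild-type C57BL/6J, CAST/EiJ and NZO/HlLtJ mice of both sexes that received no other treatment. The tissue is labelled metanephros in the sample records and kidney in the title of the series. From 6 weeks of age the mice ate either the control diet, labelled 10% fat + fiber, or the high fat, high sugar diet, labelled 44% fat + fiber, and tissue was taken at 15 weeks. Strain, sex and diet together made 12 groups, with 4 libraries in each except CAST/EiJ males on 10% fat, which had 3. The labels carry no replicate numbers, so those used here count the libraries of a group in the order of the sample records. C57BL/6J is the strain of the reference genome, CAST/EiJ is a wild-derived strain, and NZO/HlLtJ is an obese strain prone to diabetes. The labels do not say that the libraries of a group came from separate animals, so the p-values measure only the spread between these samples.

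Class I molecules stand on the surface of nearly all nucleated cells and show peptides made inside the cell to CD8 T cells and natural killer cells. Each is a heavy chain, encoded by an H2-K, H2-D, H2-Q, H2-T or H2-M gene, held by the light chain beta-2-microglobulin from B2m, and the transactivator Nlrc5 drives these genes. Peptides are cut by immunoproteasome subunits (Psmb8, Psmb9, Psmb10), carried into the endoplasmic reticulum by the Tap1 and Tap2 transporter and loaded with the help of tapasin from Tapbp. Class II molecules, paired alpha and beta chains (H2-Aa with H2-Ab1, and H2-Ea with H2-Eb1), show peptides from outside the cell to CD4 T cells. They are known mainly from dendritic cells, macrophages and B cells, and in the kidney also from tubule cells under inflammation. The invariant chain Cd74 escorts them, H2-DM exchanges their peptides, H2-DO restrains H2-DM, and the transactivator Ciita drives the genes.

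RefSeq promoter windows, the 250 bases before a gene's start on GRCm38.p6, were at hand for 27 of the 39 members, and 3 motifs were searched in them on both strands. The sequences below belong to 5 genes of heavy, light, alpha and beta chains whose counts the results turn on. Other such genes with a window, H2-D1 among them, are not printed. Each sequence gives the last 180 bases of its window 5′ to 3′ with every motif match in capitals. CCAAT, read on either strand, is the core of the Y box known from class I and class II promoters, the interferon element was searched as a pair of GAAA with any 2 bases between them, and the NF-kB site as GGGGA with TTCCC directly after it.
H2-K1, chr17:34000348-34000527, minus strand: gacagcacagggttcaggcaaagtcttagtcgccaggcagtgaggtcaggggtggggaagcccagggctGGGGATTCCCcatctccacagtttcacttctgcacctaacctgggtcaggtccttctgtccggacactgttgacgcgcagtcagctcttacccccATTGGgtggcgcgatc
H2-Q7, chr17:35438975-35439154, plus strand: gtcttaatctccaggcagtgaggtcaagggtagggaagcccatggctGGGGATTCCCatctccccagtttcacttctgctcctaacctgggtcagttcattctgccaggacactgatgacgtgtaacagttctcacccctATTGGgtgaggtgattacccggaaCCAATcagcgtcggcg
B2m, chr2:122147507-122147686, plus strand: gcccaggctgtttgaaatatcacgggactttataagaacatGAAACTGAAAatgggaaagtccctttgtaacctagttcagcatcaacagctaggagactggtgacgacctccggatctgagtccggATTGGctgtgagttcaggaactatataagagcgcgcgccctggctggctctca
H2-Aa, chr17:34287824-34288003, minus strand: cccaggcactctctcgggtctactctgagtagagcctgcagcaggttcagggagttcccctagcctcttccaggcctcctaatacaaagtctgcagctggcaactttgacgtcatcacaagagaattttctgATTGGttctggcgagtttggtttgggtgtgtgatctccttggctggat
H2-Eb1, chr17:34305687-34305866, plus strand: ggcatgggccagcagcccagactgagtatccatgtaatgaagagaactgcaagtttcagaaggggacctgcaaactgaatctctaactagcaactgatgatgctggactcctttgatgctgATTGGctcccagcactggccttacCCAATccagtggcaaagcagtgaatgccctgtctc
No match overlapped another in these 5 sequences. CCAAT stood in at least 1 window of 23 of the 27 genes, in 11 of 13 class I, 8 of 8 class II and 3 of 5 processing genes and in H2-Ke6. H2-K1 and H2-DMa have 2 windows each, and 1 of those of H2-DMa lacks it, so counted by window it stood in 24 of 29, against 33.8% of all 32851 RefSeq mouse promoters. The NF-kB letters stood in the windows of H2-K1, H2-D1, H2-Q6 and H2-Q7, against 0.0852% of all promoters. The interferon element stood in those of B2m, H2-T22 and H2-T23, against 2.98% of all. The matches describe the reference sequence of C57BL/6J and are not evidence of binding.

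The libraries held 34394550 to 58433702 counts, and 18786 genes were tested. All 9 kidney epithelium markers were detected in every library, down to at least 17.8 CPM (counts scaled to a common library size after TMM normalization) for the podocyte gene Nphs1. The numbers in the sample IDs fall into 3 runs, whose meaning the labels do not give. Run was a term of the model, no gene was called for it, and 6 of the 36 members had an unadjusted p under 0.05 for it. In 3 libraries the class II sum stood above the others of the group: replicate 2 of NZO/HlLtJ females on 44% fat, replicate 2 of NZO/HlLtJ males on 44% fat and replicate 3 of C57BL/6J males on 44% fat. The pan-leukocyte sum was far above its group in the first and the third, at 77.3 and 65.4 CPM, and at 34.9 CPM, against 22.6 to 27.7 in the rest of its group, in the second. These 3 libraries were chosen after seeing the data. Each had the highest class II sum of its group, so class II levels of these groups fall by construction when they are left out. GRCm38 is a C57BL/6J genome and the aligner is not given in the sources used here, so fewer transcripts and fewer reads assigned to an allele unlike the reference cannot be told apart in CAST/EiJ and NZO/HlLtJ.

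Class I genes were highest in C57BL/6J. The 20 class I genes summed to 690 ± 47.9 CPM (SD, n = 16) in C57BL/6J, 454 ± 90.2 (n = 16) in NZO/HlLtJ and 284 ± 45.1 (n = 15) in CAST/EiJ. On 10% fat, 12 of 18 tested class I genes were lower and 2 higher in NZO/HlLtJ than in C57BL/6J, and again 12 were lower and 2 higher in CAST/EiJ (edgeR quasi-likelihood test, Benjamini-Hochberg adjusted p under 0.05). Over all 36 members the calls were 27 (24 lower, 3 higher) in NZO/HlLtJ and 29 (26 lower, 3 higher) in CAST/EiJ, where 36.9% and 60% of all genes tested were called, 18.3% and 29.7% were called lower, and 18.6% and 30.3% higher. The median log2 difference of the class I genes was -0.52 in NZO/HlLtJ and -1.06 in CAST/EiJ, against 0.00 and 0.01 over all genes.

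**Figure D1:**
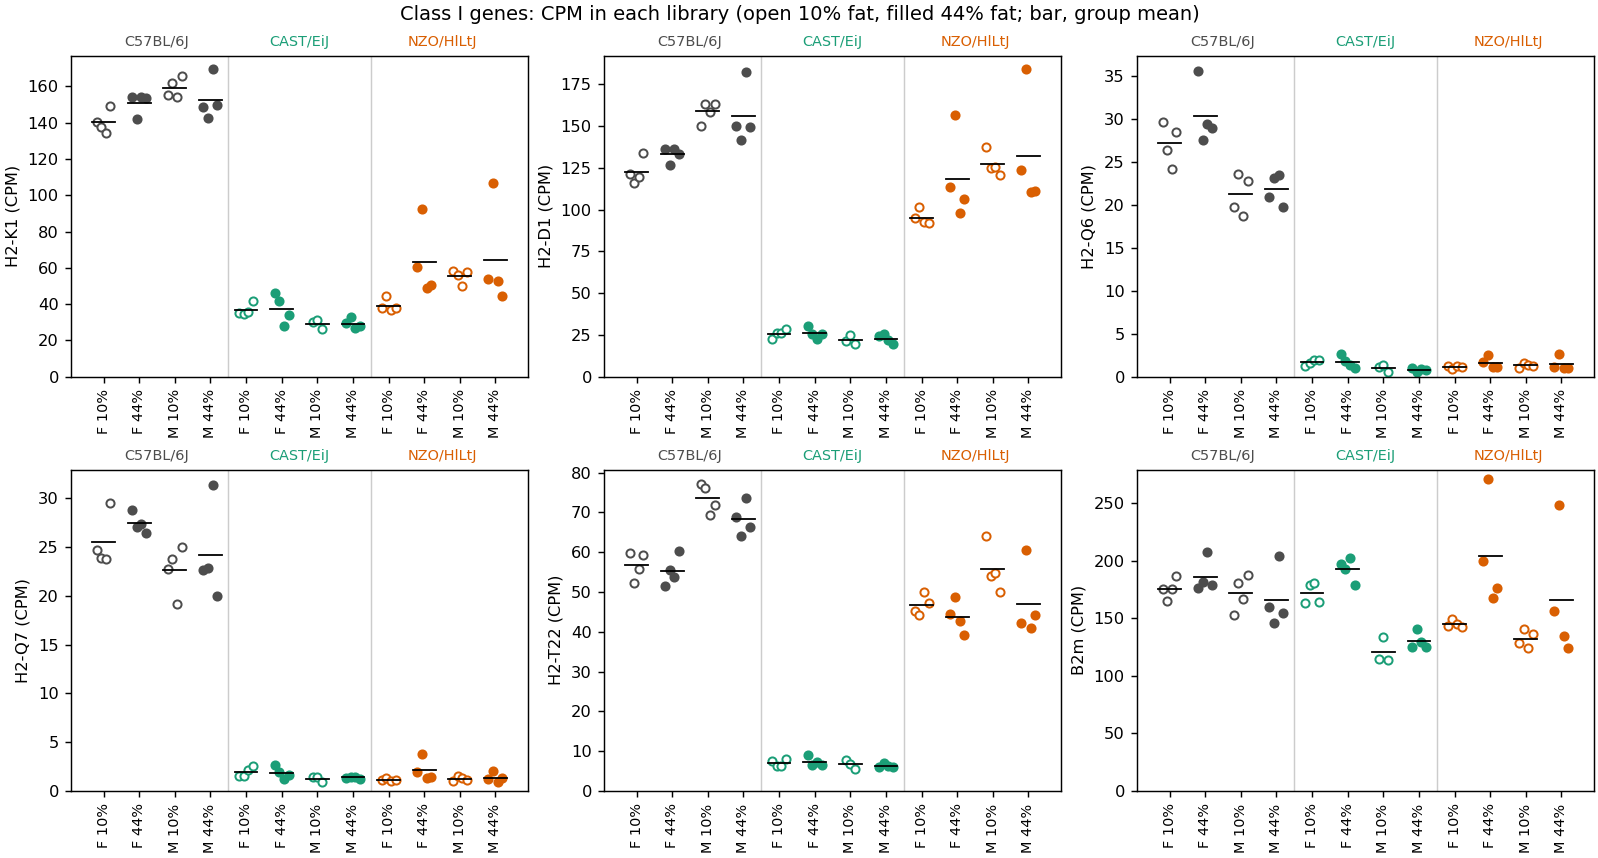
CPM of 6 class I genes in each library, linear axes from 0, by strain, sex and diet (open circles 10% fat, filled circles 44% fat, bars group means). H2-Q6 and H2-Q7 stood above 18 CPM in all C57BL/6J libraries and below 4 CPM in all others, H2-D1 and H2-T22 were low in CAST/EiJ, and B2m overlapped between strains.

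H2-K1, which encodes a classical heavy chain that shows peptides to CD8 T cells (ENSMUSG00000061232, chr17:33996017-34000333), ran from 134 to 170 CPM with a median of 152 in the 16 C57BL/6J libraries. In CAST/EiJ it ran from 26.6 to 46.2 with a median of 32.9, and in NZO/HlLtJ from 36.5 to 107 with a median of 51.5. Every C57BL/6J library was above every library of the other strains, while CAST/EiJ and NZO/HlLtJ overlapped. On 10% fat the log2 difference from C57BL/6J was -1.73 ± 0.12 (SE, adjusted p = 1.17e-14), 3.32-fold lower, in NZO/HlLtJ and -2.20 ± 0.13 (adjusted p = 2.86e-17), 4.60-fold lower, in CAST/EiJ. H2-D1, the other classical heavy chain gene (ENSMUSG00000073411, chr17:35262730-35267499), separated the strains in another order. It ran from 116 to 182 CPM with a median of 139 in C57BL/6J, from 92.0 to 184 with a median of 112 in NZO/HlLtJ, and from 19.4 to 30.2 with a median of 25.0 in CAST/EiJ. Every CAST/EiJ library lay below every library of the other strains, which overlapped each other. On 10% fat H2-D1 was 5.88-fold lower in CAST/EiJ (log2 -2.56 ± 0.09, adjusted p = 3.42e-24) and 1.29-fold lower in NZO/HlLtJ (log2 -0.37 ± 0.08, adjusted p = 0.000405). Per kilobase of exon, H2-D1 stood at 1.07 ± 0.0817 times H2-K1 in C57BL/6J (SD, n = 16), 0.836 ± 0.0752 in CAST/EiJ (n = 15) and 2.51 ± 0.314 in NZO/HlLtJ (n = 16), with no overlap between NZO/HlLtJ and the other strains in this ratio. Of the 31-base words in the reference transcripts, 22.8% of those of H2-K1 and 26.7% of H2-D1 also stood in another counted gene. How reads were split between them was not tested. The sum of both and the pseudogene H2-K2 was 294 ± 27.4 CPM in C57BL/6J (range 254 to 353). It was 175 ± 43.1 in NZO/HlLtJ (130 to 292) and 58.5 ± 8.835 in CAST/EiJ (46.3 to 77.6). Only CAST/EiJ was separate from both other strains in this sum.

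The Q region encodes nonclassical heavy chains, among them Qa-2, which H2-Q6 to H2-Q9 are known to give. H2-Q7 (chr17:35439155-35443773) ran from 19.1 to 31.4 CPM with a median of 24.3 in C57BL/6J, from 0.902 to 2.60 with a median of 1.47 in CAST/EiJ and from 0.936 to 3.80 with a median of 1.29 in NZO/HlLtJ. The C57BL/6J libraries were all far above the others, which overlapped. On 10% fat it was 20.9-fold lower in NZO/HlLtJ (log2 -4.39 ± 0.16, adjusted p = 1.61e-23) and 15.9-fold lower in CAST/EiJ (log2 -3.99 ± 0.17, adjusted p = 4.35e-22). H2-Q6 was lower by the same order, with log2 differences of -4.36 ± 0.17 and -4.21 ± 0.18. H2-Q4, H2-Q5 and H2-Q2 were lower too, by 3.58-fold, 5.79-fold and 4.45-fold in NZO/HlLtJ and by 2.18-fold, 15.2-fold and 2.33-fold in CAST/EiJ, whereas H2-Q10, known for a secreted heavy chain of liver, stood at log2 0.08 and -0.40 and passed in neither (adjusted p = 0.799 and 0.111). H2-Q5 and H2-Q2 were scarce, with medians of 21 and 14 counts over all libraries and a lowest count of 1 in each, so their folds rest on few counts. The Q genes resemble each other: of the 31-base words in the reference transcripts, 48.8% of those of H2-Q6, 39.0% of H2-Q7 and 56.7% of H2-Q5 also stood in another counted gene. Summed over the 7 Q genes, which leaves out how reads were split among them, the level was 75.0 ± 8.79 CPM in C57BL/6J (range 59.1 to 92.3), 13.5 ± 2.81 in CAST/EiJ (10.2 to 20.02) and 11.2 ± 3.87 in NZO/HlLtJ (8.27 to 22.99), so the sum of C57BL/6J did not overlap the others either.

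Among the T region genes the strains parted at H2-T22, whose product is a ligand of gamma delta T cells. H2-T22 ran from 51.4 to 77.2 CPM with a median of 62.2 in C57BL/6J, from 39.3 to 64.0 with a median of 46.3 in NZO/HlLtJ, and from 5.49 to 8.94 with a median of 6.57 in CAST/EiJ. Only the CAST/EiJ libraries were separate from both other strains. On 10% fat it was 9.50-fold lower in CAST/EiJ (log2 -3.25 ± 0.08, adjusted p = 3.03e-31) and 1.29-fold lower in NZO/HlLtJ (log2 -0.37 ± 0.07, adjusted p = 2.21e-05). Its near copy H2-T10, which shares 47.2% of the words of H2-T22, was low throughout, at means of 0.740, 1.16 and 0.812 CPM in C57BL/6J, CAST/EiJ and NZO/HlLtJ. The sum of both genes was 64.2 ± 8.77 CPM in C57BL/6J, 49.1 ± 7.07 in NZO/HlLtJ and 7.98 ± 1.16 in CAST/EiJ, so the gap at CAST/EiJ stood in the sum as well. H2-T23, which encodes Qa-1, the ligand of the NKG2A receptor, was lower in both strains without overlap with C57BL/6J, at means of 67.0 CPM in C57BL/6J, 38.7 in CAST/EiJ and 42.9 in NZO/HlLtJ, and log2 differences on 10% fat of -0.77 ± 0.05 and -0.57 ± 0.05.

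Against this run of lower genes, H2-Bl, a gene of the T region annotated as a polymorphic pseudogene, was higher in both strains. Its mean was 0.218 ± 0.113 CPM in C57BL/6J, 0.5005 ± 0.177 in NZO/HlLtJ and 1.72 ± 1.37 in CAST/EiJ, and the strains overlapped. H2-Bl was scarce, with a median of 21 counts over all libraries and a lowest count of 2. Of its words, 20.8% also stood in another counted gene. On 10% fat the log2 difference was 2.88 ± 0.30 (adjusted p = 3.65e-11) in CAST/EiJ and 1.09 ± 0.31 (adjusted p = 0.00422) in NZO/HlLtJ. The other gene higher in NZO/HlLtJ was H2-T24 (log2 0.47 ± 0.09), and the other one higher in CAST/EiJ was H2-T10 (log2 0.60 ± 0.20). The light chain differed less. B2m, which no other gene resembles in 31-base words, had means of 175, 156 and 162 CPM in C57BL/6J, CAST/EiJ and NZO/HlLtJ with overlapping ranges, and was lower on 10% fat by 1.21-fold in CAST/EiJ (adjusted p = 0.0157) and 1.27-fold in NZO/HlLtJ (adjusted p = 0.00376). On 44% fat neither difference in B2m passed, with log2 values of -0.15 and 0.04. Nlrc5, which also shares no word with another gene, was 4.09-fold lower in CAST/EiJ (log2 -2.03 ± 0.24, adjusted p = 2.57e-09) and 1.86-fold lower in NZO/HlLtJ (log2 -0.90 ± 0.21, adjusted p = 0.000787) on 10% fat. Its means were 6.24, 1.51 and 3.75 CPM in C57BL/6J, CAST/EiJ and NZO/HlLtJ.

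The makeup of the heavy chain counts differed by strain as well. H2-K1 and H2-D1 made 29.7% ± 0.63 and 27.9% ± 1.72 (SD, n = 16) of all CPM of the H2 class I genes in C57BL/6J, 26.3% ± 1.48 and 19.2% ± 1.14 in CAST/EiJ and 18.9% ± 2.88 and 40.8% ± 2.46 in NZO/HlLtJ. The share of H2-T23 was 13.2% in C57BL/6J and 15.2% in NZO/HlLtJ but 30.6% ± 1.70 in CAST/EiJ, whose lowest library, at 28.0%, was above the highest of the others, at 19.0%. These shares are of counts and not of molecules, since the genes differ in length, and how reads of like genes were split was not tested.

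**Figure D2:**
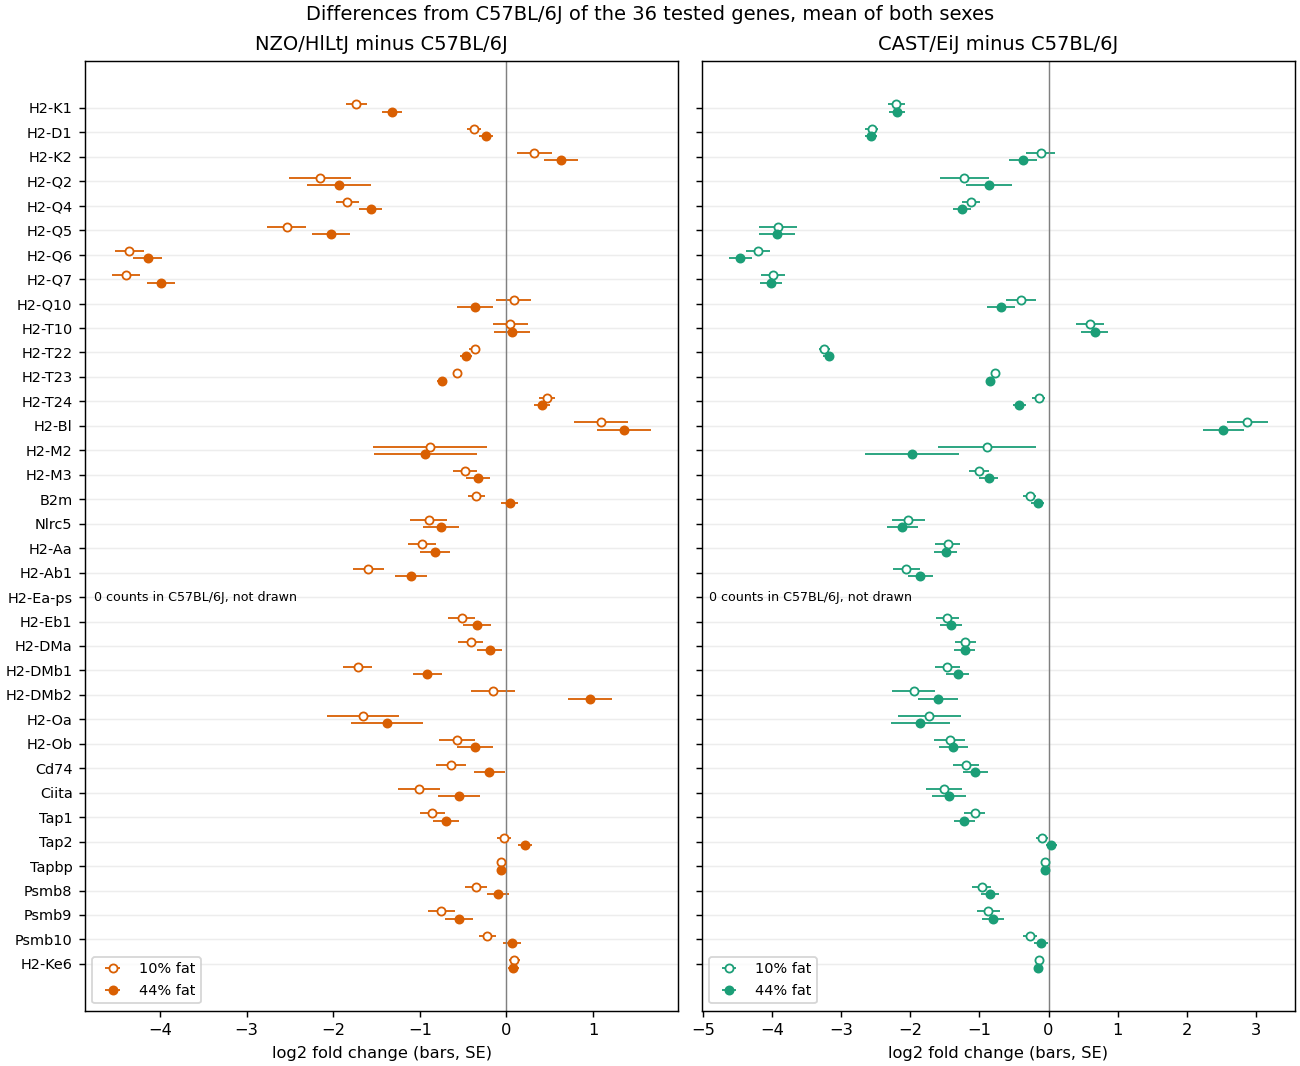
Log2 fold change from C57BL/6J of the tested genes, mean of both sexes, for NZO/HlLtJ (left) and CAST/EiJ (right), with bars of 1 SE; open points are 10% fat and filled points 44% fat. H2-Q6 and H2-Q7 lay farthest below 0 in NZO/HlLtJ, H2-Bl above 0 in both strains and Tapbp near 0, and H2-Ea-ps is not drawn because C57BL/6J held 0 counts.

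Class II genes were also highest in C57BL/6J, at a summed 315 ± 60.7 CPM (n = 16), against 229 ± 94.1 in NZO/HlLtJ (n = 16) and 130 ± 19.97 in CAST/EiJ (n = 15). Without the 3 libraries that stand apart the sums were 303 ± 37.1 CPM in C57BL/6J (n = 15) and 197 ± 29.9 in NZO/HlLtJ (n = 14). On 10% fat, 10 of 11 tested class II genes were lower in CAST/EiJ than in C57BL/6J, where 29.7% of all genes were, and 9 of 11 were lower in NZO/HlLtJ, where 18.3% were. The gene left over in both comparisons was H2-Ea-ps, which was higher, and in NZO/HlLtJ H2-DMb2 did not pass (log2 -0.16, adjusted p = 0.678). The median class II difference was -1.46 in CAST/EiJ and -0.64 in NZO/HlLtJ, and remained the same with H2-Ea-ps set to the bound given below. In whole tissue, fewer class II-bearing cells and less class II RNA per cell cannot be told apart.

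**Figure D3:**
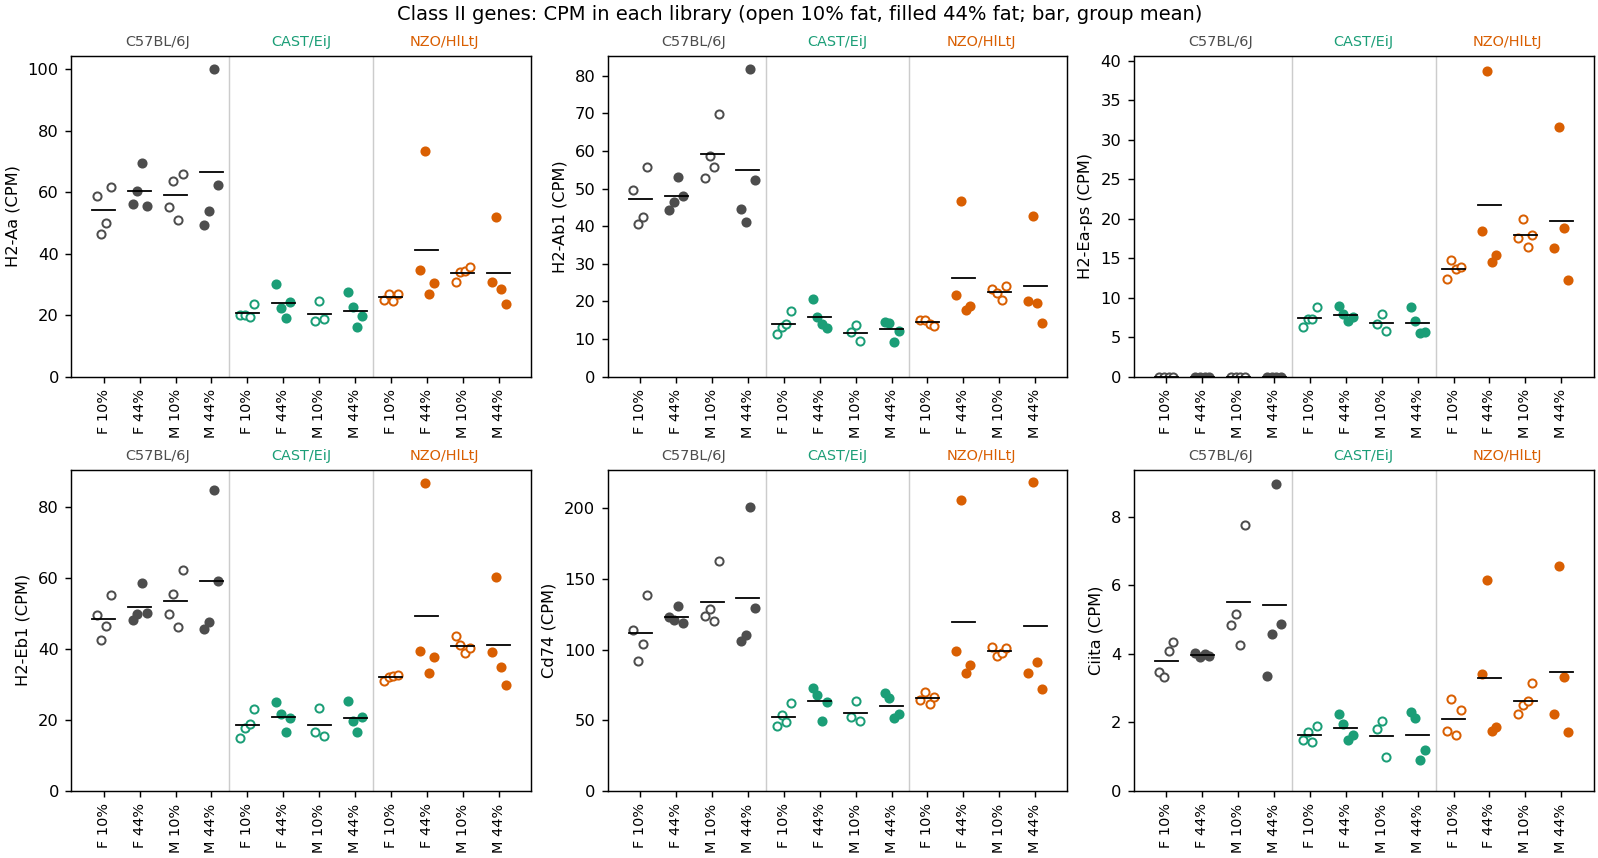
CPM of 6 class II genes in each library, linear axes from 0, by strain, sex and diet (open circles 10% fat, filled circles 44% fat, bars group means). H2-Ea-ps was 0 in all 16 C57BL/6J libraries, and single libraries on 44% fat in C57BL/6J males and in both sexes of NZO/HlLtJ stood above their groups in the genes drawn.

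H2-Ab1, the beta chain of the I-A molecule (ENSMUSG00000073421, chr17:34263209-34269418), ran from 40.5 to 81.7 CPM with a median of 50.9 in C57BL/6J, from 9.34 to 20.6 with a median of 13.7 in CAST/EiJ and from 13.5 to 46.7 with a median of 19.8 in NZO/HlLtJ. The C57BL/6J and CAST/EiJ libraries did not overlap, while NZO/HlLtJ reached into both. On 10% fat it was 4.17-fold lower in CAST/EiJ (log2 -2.06 ± 0.19, adjusted p = 2.86e-11) and 3.02-fold lower in NZO/HlLtJ (log2 -1.60 ± 0.18, adjusted p = 5.88e-09). Its partner H2-Aa was lower by less, with log2 differences of -1.46 ± 0.18 in CAST/EiJ and -0.97 ± 0.17 in NZO/HlLtJ. Per kilobase, H2-Aa stood at 0.780 ± 0.0805 times H2-Ab1 in C57BL/6J, 1.09 ± 0.143 in CAST/EiJ and 1.07 ± 0.123 in NZO/HlLtJ, and every CAST/EiJ library (0.910 or more) was above every C57BL/6J library (0.886 or less) in this ratio. H2-Eb1, the beta chain of I-E, had means of 53.2, 19.7 and 40.8 CPM in C57BL/6J, CAST/EiJ and NZO/HlLtJ, and log2 differences from C57BL/6J of -1.47 ± 0.17 in CAST/EiJ and -0.52 ± 0.16 (adjusted p = 0.00913) in NZO/HlLtJ.

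H2-Ea-ps separated C57BL/6J from the other strains completely. It encodes the alpha chain of I-E, which C57BL/6J mice are known not to make, and the annotation lists it as a polymorphic pseudogene at chr17:34342933-34344643. All 16 C57BL/6J libraries held 0 counts, where 3 counts would have been 0.0483 to 0.0916 CPM. The 15 CAST/EiJ libraries held 211 to 388 counts, 5.51 to 9.01 CPM with a median of 7.31, and the 16 NZO/HlLtJ libraries 451 to 1997 counts, 12.2 to 38.7 CPM with a median of 16.4. Set against the highest C57BL/6J floor of 3 counts per library, the mean level was at least 79.3-fold higher in CAST/EiJ and at least 200-fold higher in NZO/HlLtJ, and even the lowest library was at least 60.1-fold and 133-fold higher. Between the strains that express it, H2-Ea-ps was 2.09-fold higher in NZO/HlLtJ on 10% fat (log2 1.07 ± 0.18, adjusted p = 1.81e-05) and 2.67-fold on 44% fat (log2 1.42 ± 0.18, adjusted p = 1.46e-07), with no overlap of libraries. Per kilobase it stood at 0.697 ± 0.0731 times its partner H2-Eb1 in CAST/EiJ and 0.834 ± 0.0791 in NZO/HlLtJ. Its transcript shares no 31-base word with any other gene.

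Of the genes that load class II molecules, Cd74 was 2.28-fold lower in CAST/EiJ (log2 -1.19 ± 0.19, adjusted p = 1.20e-06) and 1.56-fold lower in NZO/HlLtJ (log2 -0.64 ± 0.18, adjusted p = 0.00411) on 10% fat, with means of 126, 58.0 and 100 CPM in C57BL/6J, CAST/EiJ and NZO/HlLtJ. The H2-DM beta chain genes parted in NZO/HlLtJ: H2-DMb1 was 3.29-fold lower than in C57BL/6J (log2 -1.72 ± 0.17, adjusted p = 8.35e-11), and H2-DMb2 did not pass on 10% fat and was 1.96-fold higher on 44% fat (log2 0.97 ± 0.25, adjusted p = 0.00196). They share 31.4% of the words of H2-DMb1, and their sum was 12.2 ± 1.86 CPM in C57BL/6J, 6.55 ± 3.62 in NZO/HlLtJ and 4.64 ± 0.983 in CAST/EiJ. H2-DMa, H2-Oa and H2-Ob were lower in both strains on 10% fat, by 2.30-fold, 3.30-fold and 2.69-fold in CAST/EiJ and by 1.33-fold, 3.14-fold and 1.48-fold in NZO/HlLtJ. H2-Oa was scarce, at a mean of 0.362 CPM in C57BL/6J. Ciita was 2.85-fold lower in CAST/EiJ (log2 -1.51 ± 0.26, adjusted p = 6.07e-06) and 2.02-fold lower in NZO/HlLtJ (log2 -1.01 ± 0.24, adjusted p = 0.00102), with means of 4.68, 1.68 and 2.87 CPM.

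Of the marker lists of immune cells, the sums of pan-leukocyte and dendritic cell genes were lower in CAST/EiJ and NZO/HlLtJ, as the class II sum was, whereas the macrophage sum was highest in CAST/EiJ and the mean sums of B cell and of T and natural killer cell genes were below C57BL/6J in CAST/EiJ alone. The part of these cells in the class II differences was not tested. The counts below stand against 29.7% of all genes lower and 30.3% higher in CAST/EiJ and 18.3% lower and 18.6% higher in NZO/HlLtJ. The summed level of 5 pan-leukocyte genes was 41.2 CPM in C57BL/6J (34.6 to 65.4), 27.0 in CAST/EiJ (21.6 to 42.2) and 29.4 in NZO/HlLtJ (20.7 to 77.3), and on 10% fat 4 were lower and 1 higher in CAST/EiJ and 5 of 5 were lower in NZO/HlLtJ. For 9 dendritic cell genes the sums were 22.9 (18.1 to 32.8), 13.9 (10.2 to 18.7) and 16.4 (10.5 to 23.2), with 7 lower in CAST/EiJ and 6 lower and 1 higher in NZO/HlLtJ. For 11 macrophage genes they were 152 (131 to 229), 191 (156 to 239) and 122 (95.5 to 222), with 5 lower and 2 higher in CAST/EiJ and 6 lower and 1 higher in NZO/HlLtJ. The 8 B cell genes summed to 2.96 (1.89 to 3.71), 2.11 (1.34 to 3.74) and 3.65 (1.35 to 22.4), with 2 lower in CAST/EiJ and 1 higher in NZO/HlLtJ, and the 11 T and natural killer cell genes to 4.87 (3.37 to 7.89), 1.16 (0.744 to 2.02) and 5.21 (2.76 to 17.3), with 10 lower in CAST/EiJ and 2 lower and 2 higher in NZO/HlLtJ. The NZO/HlLtJ means of both lists rest on replicate 2 of the females on 44% fat: the medians in C57BL/6J and NZO/HlLtJ were 2.97 and 2.31 CPM for B cell and 4.82 and 4.44 for T and natural killer cell genes. Without the 3 libraries that stand apart the NZO/HlLtJ means were 2.40 and 4.25 CPM, and 25.6 for pan-leukocyte, 15.9 for dendritic cell and 114 for macrophage genes. No marker of these lists was at 0 in all libraries of a strain. At least 1 library was at 0 for Blk, for Ccr7 and for the T and natural killer cell genes Cd3d, Cd3e, Cd3g, Cd8b1, Gzma, Klrb1c, Ncr1 and Nkg7.

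**Figure D4:**
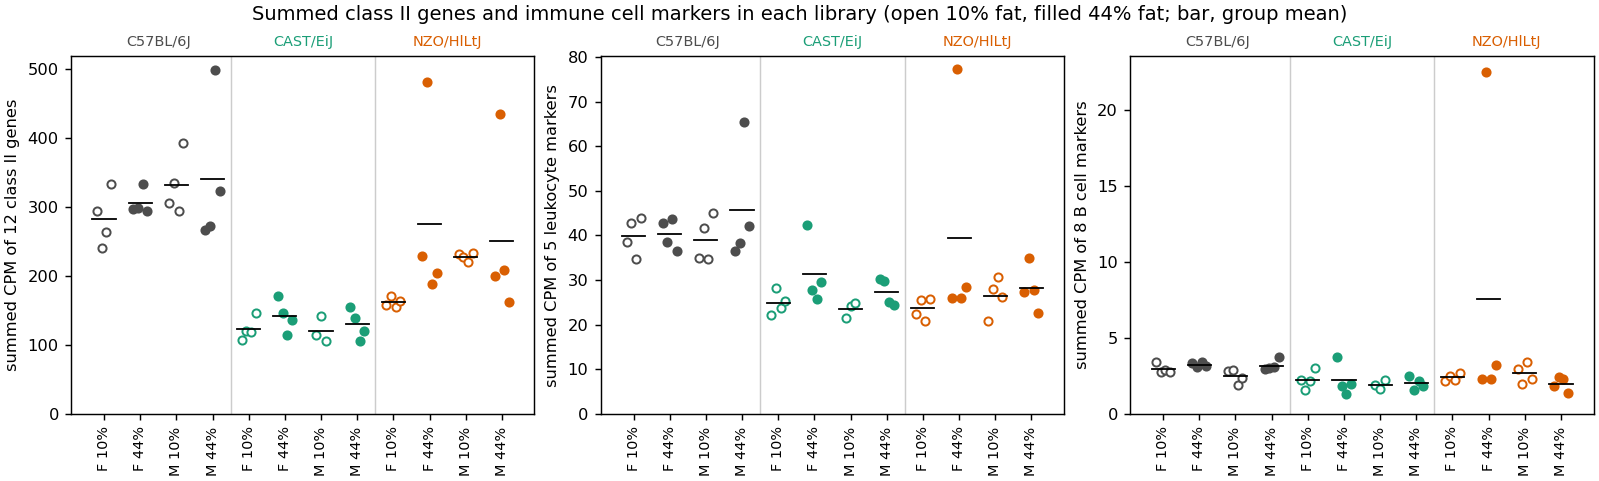
Summed CPM of the 12 class II genes, of 5 pan-leukocyte markers and of 8 B cell markers in each library (open circles 10% fat, filled circles 44% fat, bars group means). The class II sum reached 499 CPM in 1 C57BL/6J male and 482 and 435 CPM in 1 NZO/HlLtJ female and 1 NZO/HlLtJ male on 44% fat, and of these the NZO/HlLtJ female also reached 22.4 CPM of B cell markers.

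Processing genes differed less between strains. The 6 summed to 109 ± 6.52 CPM in C57BL/6J, 96.0 ± 11.1 in CAST/EiJ and 102 ± 11.1 in NZO/HlLtJ, and all ranges overlapped. On 10% fat 4 of 6 were lower in CAST/EiJ (median log2 -0.57) and 3 of 6 in NZO/HlLtJ (median -0.29), and none was higher. Of all genes, 60% were called and 29.7% lower in CAST/EiJ, and 36.9% called and 18.3% lower in NZO/HlLtJ, so the share of processing genes called was near that of all genes in CAST/EiJ. The log2 ratio of the summed levels, which abundant genes such as Tapbp weigh on, was -0.21 in CAST/EiJ and -0.14 in NZO/HlLtJ. Tap1, the first chain of the peptide transporter, was 2.09-fold lower in CAST/EiJ (log2 -1.07 ± 0.15, adjusted p = 1.54e-07) and 1.81-fold lower in NZO/HlLtJ (log2 -0.86 ± 0.14, adjusted p = 7.23e-06), at 7.35 to 12.05 CPM in C57BL/6J, 3.19 to 7.25 in CAST/EiJ and 3.09 to 10.0 in NZO/HlLtJ. Only CAST/EiJ and C57BL/6J did not overlap. Tap2, the second chain, had means of 17.4, 17.4 and 18.9 CPM and log2 differences of -0.09 and -0.03 that did not pass (adjusted p = 0.336 and 0.829). Tapbp differed little, at 64.3 ± 2.97, 62.5 ± 5.82 and 61.8 ± 3.60 CPM. Psmb8 was 1.96-fold lower in CAST/EiJ (adjusted p = 7.83e-08) and 1.28-fold in NZO/HlLtJ (adjusted p = 0.0243), Psmb9 was 1.83-fold and 1.69-fold lower, and Psmb10 was 1.20-fold lower in CAST/EiJ (adjusted p = 0.0263) and not past the threshold in NZO/HlLtJ (adjusted p = 0.0750). Tap1 and Psmb9 overlap on opposite strands, and the library kit named in the labels does not mark strand, so reads from the overlap cannot be told apart.

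Mice on the 44% fat diet gave separate libraries for the same comparisons. In CAST/EiJ against C57BL/6J, 31 of 36 members were called there (62.4% of all genes, 31.4% higher and 31% lower), and 27 were called on both diets with 1 sign, 24 lower and 3 higher (52.1% of all genes). In NZO/HlLtJ against C57BL/6J, 22 were called on 44% fat (42.2% of all genes, 21.4% higher and 20.8% lower), and 19 on both diets with 1 sign, 16 lower and 3 higher (29.7% of all genes). H2-M3, B2m, H2-Eb1, H2-DMa, H2-Ob, Cd74, Ciita and Psmb8 were called on 10% fat in NZO/HlLtJ and not on 44% fat, where the log2 differences of H2-Eb1, Cd74 and Ciita were -0.34, -0.20 and -0.55. H2-K2, a pseudogene (log2 0.63 ± 0.20), H2-DMb2 and Tap2 (log2 0.21, adjusted p = 0.0326) were called on 44% fat alone, all higher, and the Tap2 call was lost in 6 fits without 1 library, such as replicate 2 of NZO/HlLtJ males (0.15, adjusted p = 0.114), and without the 3 libraries that stand apart (0.13, adjusted p = 0.194). No change of the strain difference with diet was called for any member, as described with the diets. Without the 3 libraries that stand apart, 28 members were called in NZO/HlLtJ on 44% fat, 23 lower and 5 higher, and the class II median moved from -0.36 to -0.59 there.

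NZO/HlLtJ and CAST/EiJ differed in 22 members on 10% fat, 18 higher and 4 lower in NZO/HlLtJ (59.1% of all genes called, 29.2% higher and 29.9% lower), and in 25 on 44% fat, 21 higher and 4 lower (61.7% of all genes called, 31% higher and 30.8% lower). Both diets gave the same call and sign for 21 members, 17 higher and 4 lower, where 49.7% of all genes did so. Without the 3 libraries that stand apart, 24 of the 25 calls on 44% fat remained, and H2-DMb1 was lost (log2 0.03, adjusted p = 0.833), as it was without replicate 2 of the NZO/HlLtJ females (0.26, adjusted p = 0.164) or males (0.18, adjusted p = 0.243). In the same fit the median difference on 44% fat moved from 0.43 to 0.06 for class I and from 0.89 to 0.47 for class II. The class I medians are over 18 and 17 genes, since fewer passed the filter without these libraries. None of the libraries left out was of CAST/EiJ, so a move toward 0 follows in part from the choice. The largest differences on 10% fat were in H2-T22 (log2 2.88 ± 0.08, adjusted p = 1.80e-29) and H2-D1 (log2 2.18 ± 0.09, adjusted p = 5.29e-22). These comparisons share libraries with those against C57BL/6J, so the levels above carry the same information.

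A stricter view is whether the libraries of 2 strains overlapped at all, over both sexes and diets. In 17 of 36 members every CAST/EiJ library was below every C57BL/6J library, against 7.52% of all genes tested, and these were 9 class I genes (H2-K1, H2-D1, H2-Q4, H2-Q5, H2-Q6, H2-Q7, H2-T22, H2-T23, Nlrc5), 7 class II genes (H2-Aa, H2-Ab1, H2-Eb1, H2-DMa, H2-DMb1, Cd74, Ciita) and Tap1. In NZO/HlLtJ this held for 6 class I genes (H2-K1, H2-Q4, H2-Q5, H2-Q6, H2-Q7, H2-T23), against 2.41% of all genes, and for no class II or processing gene. H2-Ea-ps was the 1 member wholly above C57BL/6J in either strain (6.39% of all genes in CAST/EiJ and 2.01% in NZO/HlLtJ). H2-D1, H2-T22, H2-Ea-ps and H2-Eb1 were wholly higher in NZO/HlLtJ than in CAST/EiJ (6.09% of all genes).

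Most strain calls held when any 1 library was left out. Of the 27 calls in NZO/HlLtJ against C57BL/6J on 10% fat, 24 held in all such fits: without replicate 2 of C57BL/6J males, H2-DMa was at log2 -0.31 (adjusted p = 0.0906), H2-Ob at -0.50 (adjusted p = 0.0642) and Psmb8 at -0.29 (adjusted p = 0.0749), and H2-Ob was also lost without replicate 4 of C57BL/6J females (-0.47, adjusted p = 0.0772) or of C57BL/6J males (-0.48, adjusted p = 0.0705). In CAST/EiJ on 10% fat 28 of 29 held, and Psmb10 was lost without replicate 2 (-0.23, adjusted p = 0.0629) or 4 (-0.23, adjusted p = 0.0608) of C57BL/6J males or replicate 3 of CAST/EiJ males (-0.21, adjusted p = 0.0992). On 44% fat 29 of 31 held in CAST/EiJ and 20 of 22 in NZO/HlLtJ, and between NZO/HlLtJ and CAST/EiJ 18 of 22 and 23 of 25 held. The B2m, Cd74, Ciita, H2-Eb1 and Tap1 calls named above on 10% fat were among those that held.

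Other genes of the pathway were followed by lists, whose counts stand against 18.3% of all genes lower and 18.6% higher in NZO/HlLtJ and 29.7% lower and 30.3% higher in CAST/EiJ on 10% fat. The interferon gamma response list gave 26 entries, in which at least 1 gene symbol stands more than once. Of these entries, 17 were lower and 1 higher in NZO/HlLtJ on 10% fat (median log2 -0.61) and 20 lower and 2 higher in CAST/EiJ (median -1.18). Of 22 other genes of the class I pathway, such as chaperones and proteasome parts, 7 were lower and 2 higher in NZO/HlLtJ and 11 lower and 3 higher in CAST/EiJ. Of 20 tested other genes of the class II pathway, such as lysosomal proteases, 7 were lower and 7 higher in NZO/HlLtJ and 8 lower and 6 higher in CAST/EiJ. The medians of both pathway lists lay between -0.17 and -0.01, close to that of all genes.

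Diet moved few of these genes. In C57BL/6J none of the 36 members was called between 44% and 10% fat by the edgeR quasi-likelihood test (0.0266% of all genes were), none had an unadjusted p under 0.05, and the smallest adjusted p was 0.881. In CAST/EiJ none was called either (0.990% of all genes), and 1 had an unadjusted p under 0.05. DESeq2 called none in either strain. In NZO/HlLtJ 3 members were higher on 44% fat and none lower (3.62% of all genes called, 1.98% higher and 1.64% lower), and 14 had an unadjusted p under 0.05. The 3 were H2-K1, B2m and H2-DMb1.

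B2m in NZO/HlLtJ females was 143, 150, 145 and 142 CPM on 10% fat and 200, 271, 168 and 176 on 44% fat. In males it was 129, 141, 124 and 136 on 10% fat and 156, 249, 134 and 124 on 44% fat. The female groups did not overlap, the male groups did, and replicate 2 was the highest of both 44% groups. The log2 difference over both sexes was 0.40 ± 0.09 (adjusted p = 0.0113), 1.32-fold. It held without any 1 library, at log2 values of 0.28 to 0.46, and without the 3 libraries that stand apart it was 0.19 and was still called.

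H2-K1 in NZO/HlLtJ females was 37.8, 44.4, 36.5 and 38.0 CPM on 10% fat and 60.6, 92.4, 49.1 and 50.4 on 44% fat. In males it was 58.5, 55.9, 49.8 and 57.7 on 10% fat and 54.0, 107, 52.5 and 44.6 on 44% fat. Only the females did not overlap. The log2 difference was 0.44 ± 0.11 (adjusted p = 0.0261), 1.35-fold. The call was lost without replicate 2 of females on 44% fat (log2 0.33, adjusted p = 0.0878), replicate 2 of males on 44% fat (0.28, adjusted p = 0.0640), replicate 1 of females on 10% fat (0.41, adjusted p = 0.0596) or replicate 2 of males on 10% fat (0.42, adjusted p = 0.0501). Without the 3 libraries that stand apart it was 0.17 (adjusted p = 0.174).

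H2-DMb1, a chain of the class II peptide exchanger, was 2.93, 3.57, 2.63 and 2.76 CPM in NZO/HlLtJ females on 10% fat and 5.54, 10.6, 4.55 and 4.76 on 44% fat. In males it was 5.13, 4.80, 3.78 and 4.64 on 10% fat and 3.67, 11.9, 4.83 and 3.11 on 44% fat. Again the females separated and the males did not. The log2 difference was 0.70 ± 0.17 (adjusted p = 0.0142), 1.62-fold, and the call was lost without replicate 2 of females on 44% fat (0.54, adjusted p = 0.0534) and without the 3 libraries that stand apart (0.28, adjusted p = 0.126). With NZO/HlLtJ libraries fitted alone, none of the 3 passed: the adjusted p was 0.113 for B2m, 0.220 for H2-K1 and 0.174 for H2-DMb1. In NZO/HlLtJ, run 77 was the 1 run that held libraries of each sex and diet. Within it the log2 difference was 0.61 for B2m, 0.64 for H2-K1 and 0.83 for H2-DMb1 (n = 8, no test). Of its 4 libraries on 44% fat, 2 are among those that stand apart, and without these 2 the values were 0.33, 0.24 and 0.17 (n = 6).

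Next below the threshold were H2-DMb2 (log2 0.78 ± 0.24, adjusted p = 0.0598) and Cd74 (0.53 ± 0.17, adjusted p = 0.0884). The estimate was above 0 for 11 of 11 class II genes, with a median of 0.38, 12 of 18 class I genes, with a median of 0.25, and 6 of 6 processing genes, with a median of 0.17, against a median of 0.00 over all genes tested. Without the 3 libraries that stand apart the estimate was above 0 for 7 of 11, 8 of 17 and 3 of 6, with medians of 0.02, -0.01 and 0.00. These libraries were chosen after seeing the data and had high class II sums on 44% fat. A fall of the estimates without them thus follows in part from the choice and is not a test of the diet difference. Replicate 2 of NZO/HlLtJ females on 44% fat carried a class II sum of 482 CPM, where the lowest of its group was 189, together with sums of 77.3 CPM for pan-leukocyte, 22.4 for B cell and 17.3 for T and natural killer cell genes, the highest of all 47 libraries in each of these 3 lists. Replicate 2 of NZO/HlLtJ males on 44% fat had a class II sum of 435 CPM with a pan-leukocyte sum of 34.9 and a B cell sum within the range of its strain. Its T and natural killer cell sum was 6.466 CPM, where the rest of its group reached 4.496. Its macrophage sum was 134.8 CPM, where the rest of its group reached 123.0. Its dendritic cell sum was within the range of the rest of its group. The part of these cells in the diet difference was not tested. Without all 3 libraries that stand apart, 2 members were called for diet in NZO/HlLtJ: B2m, and H2-T22, which was lower (log2 -0.26, adjusted p = 0.0139).

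Counting libraries instead, 8 of 36 members were wholly higher in NZO/HlLtJ females on 44% than on 10% fat, where 4.09% of all genes were: H2-K1, B2m, H2-Ab1, H2-Eb1, H2-DMb1, H2-DMb2, Cd74 and Psmb10. In NZO/HlLtJ males the number was 0 (3.24% of all genes), in C57BL/6J it was 0 in both sexes (2.14% and 1.90%), and in CAST/EiJ it was 0 in females (1.63%) and 1, Tapbp, in males (5.21%). No member was wholly lower on 44% fat in females or males of C57BL/6J (1.6% and 1.94% of all genes), CAST/EiJ (1.75% and 5.51%) or NZO/HlLtJ (3.22% and 3.56%). The NZO/HlLtJ female groups also differed in run: those on 10% fat had no library of run 89 and those on 44% fat none of run 81. The NZO/HlLtJ male groups differed in the reverse way, with no library of run 81 on 10% fat and none of run 89 on 44% fat. The difference between the female and the male diet effect was called for no member in any strain, where 0%, 0.0479% and 0.00532% of all genes were called in C57BL/6J, CAST/EiJ and NZO/HlLtJ, and 0, 0 and 6 members had an unadjusted p under 0.05. Nor did any member's diet effect differ between strains by the edgeR test: the smallest adjusted p was 0.312 for NZO/HlLtJ against C57BL/6J, 0.585 for CAST/EiJ against C57BL/6J and 0.188 for NZO/HlLtJ against CAST/EiJ, with 7, 1 and 3 members at an unadjusted p under 0.05 and 0.0373%, 0.0532% and 1.28% of all genes called.

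Sex differences, taken as the mean of both diets, were small in most members and differed by strain. In CAST/EiJ 14 members were higher and 1 lower in females (47.6% of all genes called, 23.7% higher and 23.9% lower), in C57BL/6J 6 were higher and 5 lower (47.9% called, 25.1% higher and 22.7% lower), and in NZO/HlLtJ 3 were higher and 2 lower (49.9% called, 25.4% higher and 24.5% lower). The share of members called in either direction was thus below that of all genes in each strain. In CAST/EiJ alone the share called higher in females was above that of all genes. By class, CAST/EiJ had 8 class I, 2 class II and 4 processing genes higher in females, against 4, 0 and 2 in C57BL/6J and 2, 0 and 1 in NZO/HlLtJ. Leaving out 1 library moved the count to between 9 and 16 in CAST/EiJ, with 9 reached without replicate 3 of males on 10% fat, and to between 4 and 10 in NZO/HlLtJ, with 10 (3 higher, 7 lower) reached without replicate 2 of females on 44% fat.

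**Figure D5:**
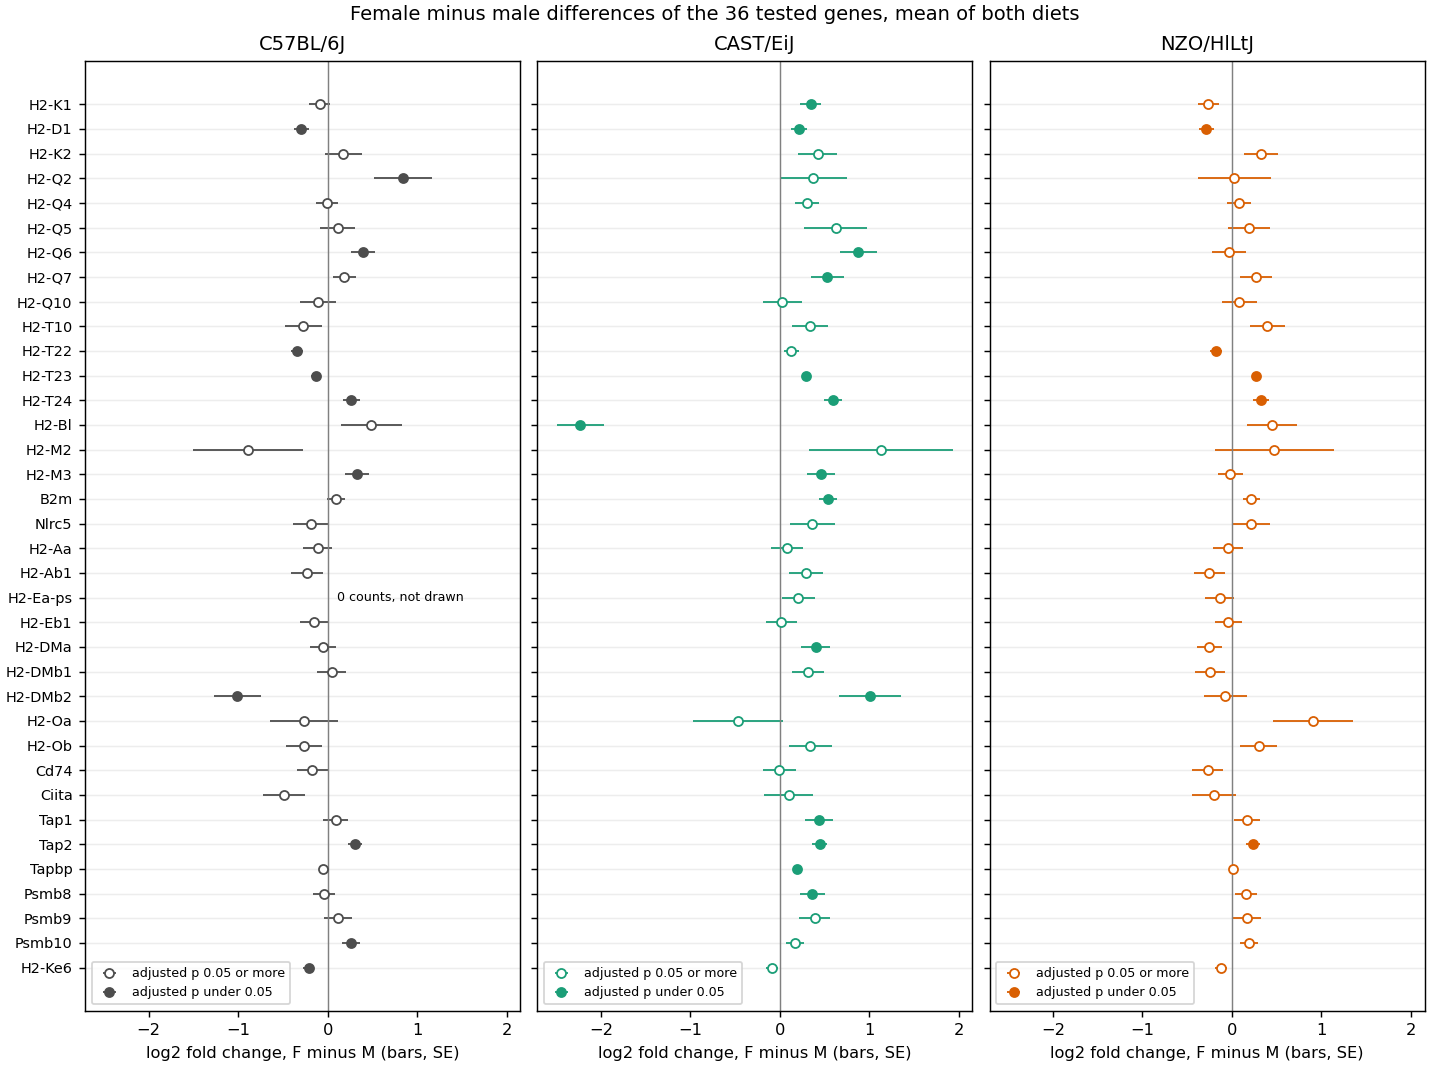
Log2 fold change of females over males in each strain, mean of both diets, with bars of 1 SE; filled points had an adjusted p under 0.05. H2-Bl at -2.23 in CAST/EiJ lay farthest from 0, H2-DMb2 had opposite signs in C57BL/6J and CAST/EiJ, and H2-Ea-ps is not drawn in C57BL/6J, which held 0 counts.

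B2m in CAST/EiJ females was 164, 179, 180 and 164 CPM on 10% fat and 197, 193, 202 and 179 on 44% fat. In CAST/EiJ males it was 115, 133 and 114 on 10% fat and 125, 141, 129 and 125 on 44% fat. Every female library was above every male library, by log2 0.54 ± 0.10 (adjusted p = 2.01e-05), 1.46-fold. In the other strains the B2m difference did not pass, at 0.09 (adjusted p = 0.447) in C57BL/6J and 0.21 (adjusted p = 0.0558) in NZO/HlLtJ. The CAST/EiJ difference exceeded that of C57BL/6J by 0.45 ± 0.14 (adjusted p = 0.0251), and this last call was lost without replicate 1 (0.42, adjusted p = 0.0508) or 3 (0.43, adjusted p = 0.0520) of CAST/EiJ males on 10% fat.

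H2-Bl, a scarce gene as given above, went the other way in CAST/EiJ. Females had 0.937, 0.508, 0.671 and 1.17 CPM on 10% fat and 0.325, 0.538, 0.343 and 0.762 on 44% fat. Males had 3.21, 2.88 and 4.73 on 10% fat and 2.81, 3.33, 2.12 and 1.51 on 44% fat. No female library reached the lowest male library, and females were 4.68-fold lower (log2 -2.23 ± 0.26, adjusted p = 2.08e-09). The female minus male value was 0.49 (adjusted p = 0.250) in C57BL/6J and 0.45 (adjusted p = 0.182) in NZO/HlLtJ. The CAST/EiJ difference departed from that of C57BL/6J by -2.71 ± 0.43 (adjusted p = 8.40e-06) and NZO/HlLtJ from CAST/EiJ by 2.68 ± 0.38 (adjusted p = 9.24e-07). These calls held in every fit that left out 1 library.

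H2-DMb2, as counted, reversed between strains. In C57BL/6J females it was 0.777, 0.656, 0.738 and 0.825 CPM on 10% fat and 0.508, 0.854, 0.762 and 0.554 on 44% fat. In C57BL/6J males it was 1.83, 1.86, 1.24 and 2.36 on 10% fat and 1.27, 0.854, 1.89 and 0.964 on 44% fat, so the groups were separate on 10% fat and met at 0.854 on 44% fat. Females were 2.01-fold lower (log2 -1.01 ± 0.26, adjusted p = 0.00126). In CAST/EiJ, where H2-DMb2 reached no more than 0.781 CPM, females were 2.02-fold higher (log2 1.01 ± 0.35, adjusted p = 0.0144), a call that limma on the deposited log2 matrix did not give (adjusted p = 0.0689). The difference between these strains was 2.02 ± 0.43 (adjusted p = 0.000710). Of the words of H2-DMb2, 36.4% also stood in another counted gene, most of all H2-DMb1. The mean sum of both genes in C57BL/6J was 11.8 CPM in females and 13.61 in males on 10% fat. On 44% fat it was 11.83 and 11.4. In CAST/EiJ the sum was 5.317 and 3.906 on 10% fat and 5.034 and 4.103 on 44% fat. H2-DMb1 made most of this sum, and how reads were split between the genes was not tested.

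Among the class I heavy chains, H2-D1 was lower in females in C57BL/6J (log2 -0.29 ± 0.08, adjusted p = 0.00342) and NZO/HlLtJ (-0.29 ± 0.08, adjusted p = 0.00349) and higher in CAST/EiJ (0.21 ± 0.09, adjusted p = 0.0470), where the call was lost in 11 of the 15 fits without 1 library, most of all without replicate 3 of males on 10% fat (0.18, adjusted p = 0.149). The CAST/EiJ sex difference of H2-D1 exceeded that of C57BL/6J by 0.51 ± 0.12 (adjusted p = 0.00322) and the difference of NZO/HlLtJ departed from that of CAST/EiJ by -0.50 ± 0.12 (adjusted p = 0.00302). H2-T23 was lower in C57BL/6J females (-0.13 ± 0.05, adjusted p = 0.0308, lost for example without replicate 3 of males on 44% fat, at -0.11 and 0.0737) and higher in CAST/EiJ females (0.30 ± 0.05, adjusted p = 1.20e-05) and NZO/HlLtJ females (0.27 ± 0.05, adjusted p = 2.03e-05). Both differences from C57BL/6J passed, at 0.43 ± 0.07 (adjusted p = 3.53e-05) for CAST/EiJ and 0.40 ± 0.07 (adjusted p = 0.000171) for NZO/HlLtJ. H2-T24, of whose words 6.38% stand in another counted gene, was higher in females of all 3 strains, by log2 0.26 ± 0.09, 0.60 ± 0.10 and 0.32 ± 0.09 in C57BL/6J, CAST/EiJ and NZO/HlLtJ. Tap2 was likewise higher in females of all 3 strains, by 0.31 ± 0.08, 0.45 ± 0.08 and 0.24 ± 0.08.

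The whole set of differences in sex effect between strains was 1 member (H2-T23) for NZO/HlLtJ against C57BL/6J (4.95% of all genes called), 7 for CAST/EiJ against C57BL/6J (13.2%) and 7 for NZO/HlLtJ against CAST/EiJ (14.3%). On 44% fat, leaving out replicate 1 of the CAST/EiJ females, or replicate 2 of the NZO/HlLtJ males, brought the last count to 4, and it was 12 without replicate 2 of the NZO/HlLtJ females. The count for NZO/HlLtJ against C57BL/6J was 2 without replicate 2 of NZO/HlLtJ males on 44% fat. Of the sex calls, 7 of 11 in C57BL/6J, 9 of 15 in CAST/EiJ and 4 of 5 in NZO/HlLtJ held in every fit that left out 1 library. Those lost in at least 1 fit were H2-Q2, H2-T23, H2-M3 and Psmb10 in C57BL/6J, H2-K1, H2-D1, H2-Q7, H2-DMa, Tap1 and Psmb8 in CAST/EiJ, and H2-T22 in NZO/HlLtJ, and their adjusted p-values with all libraries lay between 0.0183 and 0.0470.

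Class II genes of NZO/HlLtJ split by sex on 10% fat and not on 44% fat. Cd74 was 64.4, 70.0, 61.4 and 66.7 CPM in females and 102, 95.6, 97.8 and 101 in males on 10% fat. On 44% fat Cd74 was 98.7, 206, 83.7 and 89.1 in females and 83.5, 219, 91.4 and 72.4 in males. H2-Ab1 was 15.1, 15.2, 14.1 and 13.5 CPM in females and 23.2, 22.2, 20.5 and 24.1 in males on 10% fat. On 10% fat 7 of 11 class II genes (H2-Aa, H2-Ab1, H2-Ea-ps, H2-Eb1, H2-DMa, H2-DMb1, Cd74) and 2 of 18 class I genes (H2-K1, H2-D1) were wholly lower in females, against 17.9% of all genes, and on 44% fat none was (15.4%). The sexes also differed in run: on 10% fat the females had no library of run 89 and the males none of run 81. On 44% fat the reverse held. These CPM carry no run term, so sex and run are partly mixed in this split. The pan-leukocyte sums of these groups on 10% fat were 23.6 CPM in females (20.7 to 25.7) and 26.4 in males (20.9 to 30.7), and the macrophage sums 104.5 (95.5 to 112) and 126 (118 to 132). The part of these cells was not tested. No class II gene was called for sex in NZO/HlLtJ over both diets, and the interaction of sex and diet passed for none, as given above.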

How the data were processed

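Kidney polyA RNA of 47 samples in 12 groups was sequenced with 100-base paired reads. The authors deposited estimated counts per gene, which were rounded to whole numbers before testing, and a variance-stabilized log2 matrix. GRCm38 and DESeq2 are named in the submitters' processing notes, and the aligner, the counter and the annotation are not given in the sources used here. Counts were scaled by TMM and tested with edgeR 4.0.16 (R 4.3.3), using filterByExpr, robust quasi-likelihood fits with a mean for each group and a run term, and 33 residual degrees of freedom. Benjamini-Hochberg adjustment ran over all 18786 genes tested, and a call is an adjusted p under 0.05. Strain contrasts averaged the sexes within a diet, diet contrasts the sexes, and sex contrasts the diets. The fit was also run on simulated data with planted diet changes, and the outcome is not given here. Depth was 34394550 to 58433702 counts per library. Alternatives were DESeq2 1.42.0 size factors and Wald test, limma 3.58.1 on the deposited log2 matrix, no filter, no run term, only the strains compared, each library left out, summed levels for class medians and, chosen after seeing the data, leaving out the 3 libraries that stand apart. Any member could be named, and marker genes at 0 were named after their values were seen. The members and lists were chosen with earlier results of these data known. Levels per kilobase used the exon length of each gene in the annotation. Promoter windows came from RefSeq, and shared 31-base words from the annotated transcripts.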

Additional observations from a re-analysis of the deposited data

Results flagged for a closer look

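Within the 396 sets of 4 libraries examined gene by gene, 33 held a library far from the other 3, and chance alone marks about 1 in 20 such sets. Replicate 2 of NZO/HlLtJ females on 44% fat was high in 10 of them, with H2-T10 at 1.75 CPM, H2-T24 at 11.6, H2-Aa at 73.3, H2-Ab1 at 46.7, H2-Ea-ps at 38.7, H2-Eb1 at 86.9, H2-DMb1 at 10.6, H2-DMb2 at 4.59, Cd74 at 206 (205.7) and Psmb9 at 4.30. Replicate 2 of NZO/HlLtJ males on 44% fat was high in 7, with H2-K1 at 107 (106.6), H2-Q4 at 10.7, H2-Q6 at 2.63, H2-T22 at 60.6, H2-T23 at 40.2, Psmb10 at 7.11 (7.105) and Cd74 at 219 (218.6). The same females' replicate stood highest of all libraries in B cell, T and natural killer cell and pan-leukocyte markers, and the part of these cells was not tested.

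Replicate 4 of CAST/EiJ females on 10% fat was high in H2-K1 at 41.8 CPM, H2-T10 at 1.70 and H2-Aa at 23.6. Replicate 3 of C57BL/6J males on 44% fat was high in H2-M2 at 1.04 and Psmb8 at 9.44. Other C57BL/6J libraries apart from their group were low in H2-K1 at 142 (females on 44% fat, replicate 2), low in H2-Q2 at 0.570 (females on 10% fat, replicate 3), high in H2-Q7 at 29.6 (females on 10% fat, replicate 4), apart in H2-M2 at 0.184 (females on 10% fat, replicate 1), low in H2-M3 at 1.68 (males on 10% fat, replicate 4) and high in B2m at 207 (females on 44% fat, replicate 3). The remaining NZO/HlLtJ libraries were apart in H2-Q2 at 0.307 (females on 10% fat, replicate 4), H2-Q5 at 0.541 (males on 44% fat, replicate 4), H2-T10 at 0.894 (males on 10% fat, replicate 2), H2-T23 at 44.9 (females on 10% fat, replicate 1) and H2-Ke6 at 31.7 (females on 44% fat, replicate 1).

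The female minus male difference differed between strains in 15 tests by the edgeR quasi-likelihood interaction. NZO/HlLtJ departed from C57BL/6J in H2-T23 by 0.40 on the log2 scale. CAST/EiJ departed from C57BL/6J in H2-D1 by 0.51, H2-T22 by 0.47, H2-T23 by 0.43, H2-Bl by -2.71, B2m by 0.45, H2-DMb2 by 2.02 and Tapbp by 0.24. NZO/HlLtJ departed from CAST/EiJ in H2-K1 by -0.61, H2-D1 by -0.50, H2-Q6 by -0.91, H2-T22 by -0.30, H2-Bl by 2.68, H2-DMa by -0.65 and Tapbp by -0.18. H2-T22 no longer passed without the 3 libraries that stand apart (-0.26, adjusted p = 0.0584). The last 2 sets of comparisons share the CAST/EiJ libraries.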

How the results depend on the processing

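No called difference or count changed direction under any alternative run. Class medians for strain and diet, set against the log2 ratio of the summed levels, stayed within the spread of replicates in 9 of 9 comparisons for class II, 4 of 9 for class I and 6 of 9 for processing genes, and 2 medians near 0 took the other sign. For CAST/EiJ against C57BL/6J on 10% and 44% fat the processing genes were at -0.57 and -0.46 by median and -0.21 and -0.19 by sum, and class I at -1.06 on both diets by median and -1.33 and -1.29 by sum. The count of members called for diet in NZO/HlLtJ, 3 in the model of all libraries, was 0 with NZO/HlLtJ fitted alone and 6 with the DESeq2 Wald test, and ran from 1 to 4 with 1 library left out. For females against males the count was 5 in NZO/HlLtJ, 8 without the 3 libraries that stand apart, an alternative chosen after seeing the data, and 4 to 10 with 1 library left out. With 1 library left out it ran from 8 to 10 in C57BL/6J and from 9 to 16 in CAST/EiJ. The difference of these effects between strains ran from 4 to 12 calls for NZO/HlLtJ against CAST/EiJ, 1 to 2 for NZO/HlLtJ against C57BL/6J and 6 to 8 for CAST/EiJ against C57BL/6J. Strain counts on 10% and 44% fat ran from 24 to 28 and 20 to 27 for NZO/HlLtJ against C57BL/6J, 28 to 30 and 29 to 32 for CAST/EiJ against C57BL/6J, and 21 to 22 and 23 to 27 for NZO/HlLtJ against CAST/EiJ. Causes of these changes were not tested. No paired analysis was possible because the labels carry no replicate numbers. Depth limits the scarce genes: H2-Q1, H2-M5 and H2-Eb2 could not be tested, and differences in H2-M2 and H2-Oa carried standard errors above those of the abundant genes. Assignment of reads from CAST/EiJ and NZO/HlLtJ alleles to a C57BL/6J reference could not be varied here.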

Other observations

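Type I interferon response genes called for sex were, with 1 exception, higher in females. Of 23 type I interferon response genes, 21 were higher in CAST/EiJ females than males by the edgeR quasi-likelihood test, 13 in C57BL/6J and 11 in NZO/HlLtJ, where 1 was lower. Of all genes tested, 23.7%, 25.1% and 25.4% were higher and 23.9%, 22.7% and 24.5% lower in females of CAST/EiJ, C57BL/6J and NZO/HlLtJ. Of the 26 entries of the interferon gamma response list, 11 were higher and 2 lower in CAST/EiJ females, 4 and 4 in C57BL/6J and 6 and 2 in NZO/HlLtJ. This made 13, 8 and 8 calls where 47.6%, 47.9% and 49.9% of all genes were called. No pan-leukocyte marker was called for sex in any strain, while 6, 6 and 4 of 8 endothelial markers were higher in females of C57BL/6J, CAST/EiJ and NZO/HlLtJ and none lower.

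Per kilobase of exon, B2m ranked first and Cd74 second among the members in all 3 strains. B2m stood at 203 (203.5), 181 and 188 CPM per kilobase and Cd74 at 75.3, 34.6 and 59.6 in C57BL/6J, CAST/EiJ and NZO/HlLtJ. H2-K1 per kilobase was 0.254 ± 0.0235 of B2m in C57BL/6J (SD, n = 16), 0.0638 ± 0.00886 in CAST/EiJ (n = 15) and 0.101 ± 0.0192 in NZO/HlLtJ (n = 16), and the C57BL/6J libraries did not overlap the others in this ratio.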
